A study of Mus musculus with 6 samples.

Results

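The genes described here are the abundant members of the mouse Zfp series of zinc finger genes, measured by RNA sequencing of pancreatic islets. They were chosen by symbol (Zfp followed by digits alone) and by level: members were selected on the authors' mean reads, which averaged 500 or more over both groups. The level is therefore a description, not a finding. This gave 237 of 337 Zfp genes with such symbols, among 19940 genes in all and 10326 genes over the same minimum. Islets were hand-picked after enzyme digestion of the pancreas from C57BL6/J mice, with 3 samples from pregnant animals at gestational day 14.5 and 3 from nonpregnant littermates. The labels give no other treatment or allele and no age, nor whether a sample is 1 animal, while 5 animals per group are named in the study's design. Each gene has 1 mean per group, so no spread between samples can be given, and the authors' p-values may cover technical spread alone. Their deposited ratios lie a median of 0.04 log2 units above the plain ratio of the means printed here. In whole islets, fewer cells of a type and less RNA per cell cannot be told apart.

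Most Zfp genes encode proteins with a row of C2H2 zinc fingers, small folds in which a pair of cysteines and a pair of histidines hold a zinc ion and which read DNA bases. Many carry a KRAB domain in front of the fingers. KRAB binds the corepressor TRIM28 (KAP1), which brings the histone methyltransferase SETDB1 and HP1 proteins to the bound site, and many KRAB proteins silence transposable elements in this way. Other Zfp proteins activate genes, bind RNA or attach ubiquitin or SUMO to other proteins, so the shared symbol does not stand for 1 function.

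The abundant Zfp genes were mostly lower in pregnant islets by a small amount. The log2 ratio of pregnant over nonpregnant was below 0 for 193 of the 237 genes (81.4%), above 0 for 43 and exactly 0 for 1. Among the 10089 other genes over the same minimum, 51.4% were below 0. The median log2 ratio was -0.14 for the Zfp genes (quartiles -0.25 and -0.04) and -0.01 for these other genes (quartiles -0.15 and 0.15). At an adjusted p under 0.05 by the authors' deposited table, 21 Zfp genes fell (8.86%) and 3 rose (1.27%). The background was 6.29% lower and 9.84% higher among all 10326 genes over the minimum, 6.23% lower and 10% higher among those of them that are not Zfp genes, and 4.15% lower and 7.57% higher among all 19940 genes. The share of Zfp genes that fell was near the background of genes over the minimum, and the share that rose was below it. At an unadjusted p under 0.05, 56 Zfp genes were lower (23.6%) and 5 higher (2.11%), against 14.2% lower and 16% higher among all genes over the minimum. The same shares were 14% lower and 16.4% higher without the Zfp genes, and 9.78% lower and 12.4% higher among all genes.

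**Figure D1:**
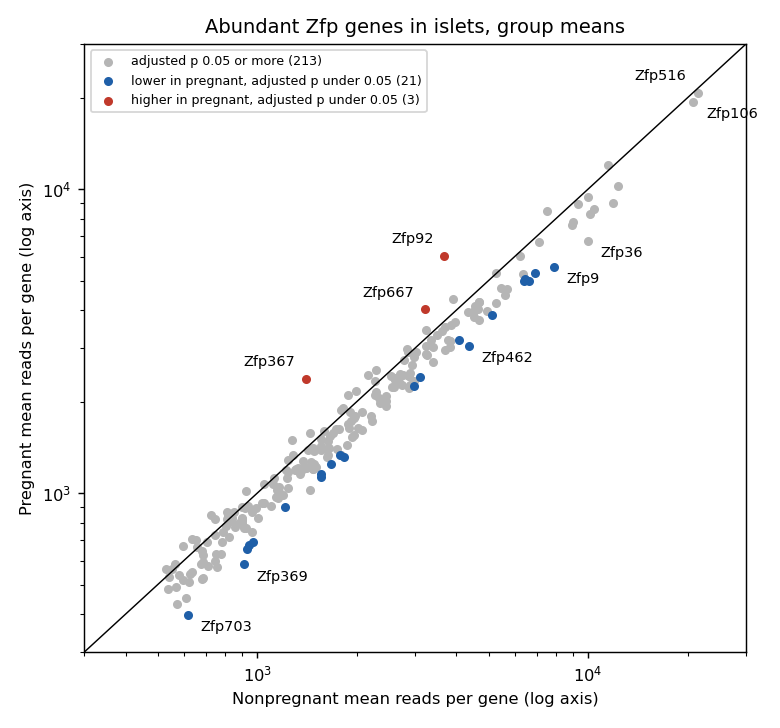
Authors' mean reads in pregnant islets (vertical, log axis) against nonpregnant islets (horizontal, log axis) for the 237 abundant Zfp genes, with a line of equal means. The 21 genes that fell and the 3 that rose are coloured, and most of the grey genes lie just below the line.

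**Figure D2:**
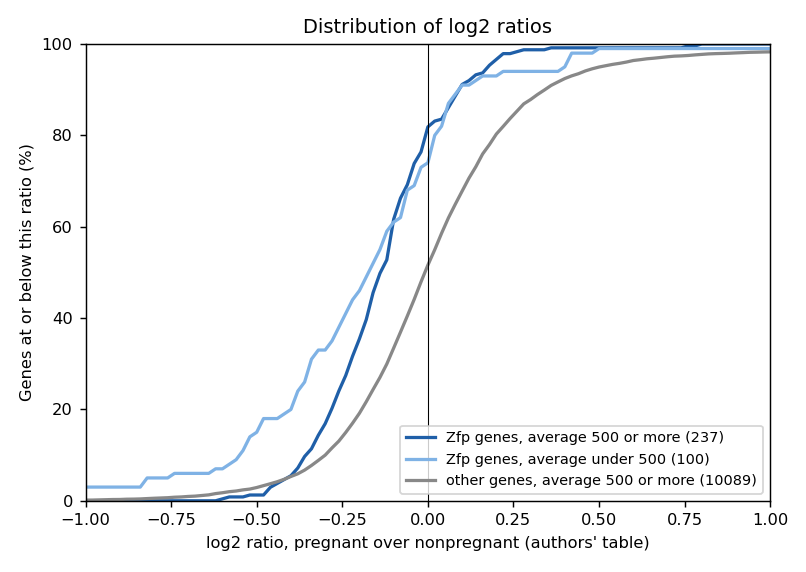
Cumulative share of genes (%) by log2 ratio of pregnant over nonpregnant, for 237 abundant Zfp genes, 100 Zfp genes under the minimum and 10089 other genes over it. The Zfp curves lie left of the other genes around 0, with 81.4% of the abundant Zfp genes below 0 against 51.4% of the other genes, and the genes with under 500 reads spread more widely.

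The change was of small size throughout. No member of the group changed by 2-fold or more in either direction (0 of 237), and 69 lay within 0.1 of 0 on the log2 scale. The fold changes of the 21 genes that fell ran from 0.65 to 0.8 with a median of 0.76 by the authors' deposited table, close to the median of 0.74 for all genes over the minimum that fell. Together the abundant Zfp genes took 0.635% of summed mean reads in pregnant islets and 0.741% in nonpregnant islets, shares of group means that carry no error.

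Promoter sequences are shown for the genes that rose and for the 2 genes with the lowest ratios among those that fell and have a promoter entry, to show genes from both directions. Zfp369, Zfp703, Zfp462 and Zfp9 also had low ratios but no promoter entry in the table used here. They span 250 bases before to 50 bases after the annotated start and come from RefSeq on GRCm38.p6, where 196 of the 237 genes had an entry. In Zfp367, at chr13:64153150-64153449 (minus strand), capitals mark E2F sites, found as TTTGGCGC, TTTCCCGC, TTTCGCGC or TTTGCCGC on either strand. In Zfp92 at chrX:73410846-73411145 (plus strand), Zfp667 at chr7:6286330-6286629 (plus strand), Zfp658 at chr7:43562120-43562419 (plus strand) and Zfp52 at chr17:21535289-21535588 (plus strand), capitals mark the GC box GGGCGG on either strand.
Zfp367: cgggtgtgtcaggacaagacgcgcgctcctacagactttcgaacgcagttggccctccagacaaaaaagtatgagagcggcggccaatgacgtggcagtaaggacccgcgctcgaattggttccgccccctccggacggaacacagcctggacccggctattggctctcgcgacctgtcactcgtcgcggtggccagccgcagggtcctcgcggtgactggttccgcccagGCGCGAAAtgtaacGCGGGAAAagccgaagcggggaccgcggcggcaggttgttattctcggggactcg
Zfp92: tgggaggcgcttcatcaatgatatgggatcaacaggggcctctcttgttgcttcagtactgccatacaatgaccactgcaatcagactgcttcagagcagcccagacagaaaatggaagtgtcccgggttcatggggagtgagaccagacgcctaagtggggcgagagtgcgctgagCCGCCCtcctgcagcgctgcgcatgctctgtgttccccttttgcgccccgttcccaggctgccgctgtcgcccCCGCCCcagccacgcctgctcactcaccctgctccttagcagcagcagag
Zfp667: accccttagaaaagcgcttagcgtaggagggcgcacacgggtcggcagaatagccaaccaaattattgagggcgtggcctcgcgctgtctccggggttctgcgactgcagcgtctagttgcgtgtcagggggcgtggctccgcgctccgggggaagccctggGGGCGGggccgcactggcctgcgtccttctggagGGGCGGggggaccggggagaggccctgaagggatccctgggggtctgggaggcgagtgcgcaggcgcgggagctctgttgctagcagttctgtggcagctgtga
Zfp658: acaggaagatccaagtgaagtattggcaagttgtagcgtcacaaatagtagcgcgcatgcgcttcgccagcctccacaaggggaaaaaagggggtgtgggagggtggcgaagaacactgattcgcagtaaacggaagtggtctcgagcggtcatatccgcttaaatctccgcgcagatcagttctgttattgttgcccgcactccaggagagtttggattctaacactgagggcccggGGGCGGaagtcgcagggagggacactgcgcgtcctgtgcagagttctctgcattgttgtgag
Zfp52: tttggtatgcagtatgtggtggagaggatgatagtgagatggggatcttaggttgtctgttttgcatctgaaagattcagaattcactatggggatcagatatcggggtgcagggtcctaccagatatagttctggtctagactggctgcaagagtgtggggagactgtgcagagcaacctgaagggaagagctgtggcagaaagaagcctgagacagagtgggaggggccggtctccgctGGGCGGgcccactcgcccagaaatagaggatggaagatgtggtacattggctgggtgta
Zfp367 held 2 E2F octamers in this window, the first starting 19 bases before the annotated start, and its other listed promoter held one as well. Of the 2 promoters listed for Zfp92, only 1, the one shown, held a GC box. An E2F octamer was present in 5.35% of 243 promoters of abundant Zfp genes, 3.8% of 10649 promoters of genes over the minimum and 2.26% of all 32851 promoters. The GC box was present in 50.2%, 64.2% and 35.7% of these promoters. The NRF1 palindrome, searched likewise, was present in 4.12%, 2.19% and 0.971% of them. It also occurs in the Zfp658 window, and GC boxes occur in the Zfp367 window, where neither is capitalised. An E2F octamer and a GC box can share bases. The motifs were chosen after the ratios were seen, and a match is only a run of letters.

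Zfp367, Zfp92 and Zfp667 were the genes that rose. Zfp367, whose human counterpart was described as an erythroid activator, had 2372 mean reads in pregnant islets and 1400 in nonpregnant islets. That is a 1.74-fold rise by the authors' deposited table (adjusted p = 1.56e-08), the largest of the group. Zfp367 (ENSMUSG00000044934) spans 64133018 to 64153202 of chromosome 13, minus strand, in GRCm38. Zfp92, an X-linked KRAB gene known from mouse islets, had 6043 mean reads in pregnant islets and 3679 in nonpregnant islets, a 1.68-fold rise by the authors' deposited table (adjusted p = 1.7e-10). Zfp92 (ENSMUSG00000031374) lies on the plus strand of chromosome X at 73411096 to 73428385. Zfp667, the KRAB gene known in rat as Mipu1 and induced there by heart ischemia, had 4019 mean reads in pregnant islets and 3215 in nonpregnant islets. Its rise was 1.28-fold by the authors' deposited table (adjusted p = 0.0163). Exons of Zfp367 and Zfp92 overlap those of Gm47513 and Gm26726 on the opposite strand. Since strand use in counting is unknown, reads of both partners cannot be told apart, whereas Zfp667 has no such overlap.

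Of the 21 genes that fell, 10 carried a KRAB pattern in their translated coding sequence. Zfp369, known as NRIF2, a relative of the neurotrophin receptor interacting factor, had the lowest ratio of the whole group. Its mean was 583 reads in pregnant islets and 913 in nonpregnant islets, a fold change of 0.65 by the authors' deposited table (adjusted p = 0.00544). Zfp369 (ENSMUSG00000021514) lies on the plus strand of chromosome 13 at 65278814 to 65304221. Zfp658, with 21 finger patterns, had 653 mean reads in pregnant islets and 930 in nonpregnant islets, a fold change of 0.72 by the authors' deposited table (adjusted p = 0.00615). Zfp9 had the highest mean reads of the genes that fell, at 5545 in pregnant islets and 7876 in nonpregnant islets. Its fold change was 0.72 by the authors' deposited table (adjusted p = 0.000193). The remaining KRAB genes that fell were Zfp52, Zfp235, Zfp944, Zfp942, Zfp160, Zfp324 and Zfp398, the last of which is known in human as a partner of estrogen receptor alpha. Their fold changes lay between 0.73 and 0.8 by the authors' deposited table, with adjusted p-values from 0.00862 to 0.0309. Zfp942 and Zfp944 are near neighbours on chromosome 17 and share 5.8% and 10.4% of their 50-base stretches with other genes, each mostly with the other, so part of their reads could be split. Exons of Zfp52 overlap 9330136K24Rik on the opposite strand.

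The other 11 genes that fell had no KRAB pattern in the coding sequences read, which does not show that they lack the domain. Zfp703, a transcriptional corepressor of the NET family, had 398 mean reads in pregnant islets and 618 in nonpregnant islets, a fold change of 0.66 by the authors' deposited table (adjusted p = 0.00132). Its average of 508 reads lay just over the minimum, and its exons overlap Gm45371 on the opposite strand. Zfp462, a very large protein of chromatin and development with 33 finger patterns, had 3058 mean reads in pregnant islets and 4365 in nonpregnant islets. Its fold change was 0.72 by the authors' deposited table (adjusted p = 0.000272). Zfp462 (ENSMUSG00000060206) lies on the plus strand of chromosome 4 at 54945048 to 55083563.

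Several of these genes have roles outside the binding of DNA. Zfp598, the ubiquitin ligase that marks collided ribosomes, had 4979 mean reads in pregnant islets and 6397 in nonpregnant islets, a fold change of 0.8 by the authors' deposited table (adjusted p = 0.0216). Zfp451, a SUMO ligase, had 3844 mean reads in pregnant islets and 5124 in nonpregnant islets, a fold change of 0.77 by the authors' deposited table (adjusted p = 0.0202). Among DNA-binding members, Zfp260, a cofactor of GATA4 in heart muscle cells, fell to 0.78, and Zfp292, described in rat as an activator of the growth hormone gene, fell to 0.8 with an adjusted p of 0.0495 by the authors' deposited table, barely under the threshold. Zfp236, whose human counterpart was described as glucose-regulated in kidney cells, fell to 0.77 by the authors' deposited table (adjusted p = 0.0056), with exons that overlap Gm10524 on the opposite strand. Zfp408, a gene of inherited retinal disease in human, Zfp422, Zfp420 and Zfp956 also fell, with fold changes of 0.74 to 0.8 by the authors' deposited table. Zfp422 shares 17.7% of its 50-base stretches with other genes, so its reads are uncertain.

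**Figure D3:**
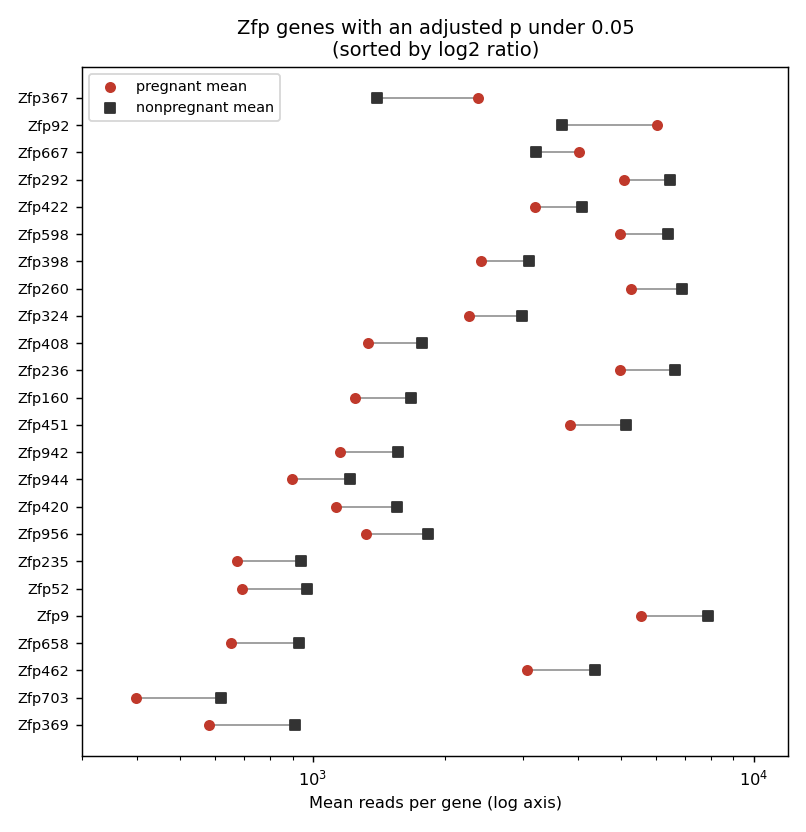
Authors' mean reads in pregnant (circles) and nonpregnant (squares) islets, on a log axis, for the 24 Zfp genes with an adjusted p under 0.05, sorted by log2 ratio with the highest at the top. In the 3 upper rows the pregnant mean is the higher one, and in the 21 rows below it is the lower one.

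Of the 213 genes that did not pass, the log2 ratios ran from -0.53 to 0.27. Zfp36, which encodes tristetraprolin, a protein that binds AU-rich elements and speeds the decay of mRNAs, had the lowest. Its mean was 6738 reads in pregnant islets and 9981 in nonpregnant islets, a fold change of 0.7 with an adjusted p of 0.487 by the authors' deposited table. Genes with smaller differences passed, so the size of the ratio alone did not set the call. Zfp692, which responds to an AMP kinase activator, Zfp595, Zfp579 and Zfp619 stood at 0.73 to 0.77 by the authors' deposited table (adjusted p = 0.0618 to 0.319). At the other end, Zfp810, Zfp941, Zfp282, Zfp609, a partner of the cohesin loader Nipbl, and Zfp771 stood at 1.15 to 1.2 by the authors' deposited table (adjusted p = 0.141 to 0.844).

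Levels per length were computed from the mean reads, scaled to annotated exon length and summed mean reads (RPKM). The abundant Zfp genes had a median of 4.08 RPKM, with a range of 0.509 to 29.6 RPKM, against a median of 7.36 RPKM for all genes over the minimum. Zfp516, an activator of brown fat genes, had the highest average of both groups, with 28.6 RPKM in pregnant islets and 30.6 RPKM in nonpregnant islets. Zfp36 followed with 22.2 RPKM in pregnant islets and 34 RPKM in nonpregnant islets, and Zfp187, now named Zscan26, with 23.4 RPKM in pregnant islets and 32.2 RPKM in nonpregnant islets. Zfp106, an RNA-binding protein that motor neurons need, had 21.2 RPKM in pregnant islets and 23.6 RPKM in nonpregnant islets. Zfp706, a small protein that represses Klf4 in embryonic stem cells, had 20.5 RPKM in pregnant islets and 22.2 RPKM in nonpregnant islets. None of these 5 passed by the authors' deposited table (adjusted p = 0.12 to 1), and without a spread between samples their order in each group cannot be told from noise. Zfp187 and Zfp106 share 22.8% and 24.7% of their 50-base stretches with genes on the opposite strand for the most part, and exons of Zfp36 and Zfp706 also overlap such genes, which makes these levels uncertain.

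Known members with other tasks lay in the same narrow band. Zfp207 (BuGZ), which loads Bub3 onto kinetochores in cell division, had 8618 mean reads in pregnant islets and 10400 in nonpregnant islets, a fold change of 0.85 by the authors' deposited table (adjusted p = 0.13). Zfp568, which represses a placental Igf2 transcript in the embryo, stood at 0.88, and Zfp809, which silences retroviruses, at 0.85 by the authors' deposited table (adjusted p = 0.288 and 0.271). The transcription factors Zfp148 (ZBP-89), Zfp281 and Zfp143, the last an activator of small nuclear RNA genes, stood at 0.84, 0.84 and 0.92 by the authors' deposited table. Zfp410, known as an activator of Chd4, stood at 0.9, Zfp335 at 0.93, Zfp217 and the splicing factor Zfp326 at 0.88, Zfp318 at 0.85 and Zfp800, a repressor of gut endocrine differentiation in human cells, at 0.9 by the authors' deposited table. Zfp622, of late ribosome maturation, was at 0.99, the ubiquitin ligase Zfp91 at 1.07 and Zfp827, a telomere chromatin protein, at 1.09 by the authors' deposited table. None of these passed (adjusted p = 0.101 to 1 by the authors' deposited table).

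The members differed widely in protein structure. Coding sequences of the GENCODE M21 annotation could be read for 234 of them, and 228 of these held at least 1 C2H2 pattern, with a median of 10 and a maximum of 36. The exceptions included Zfp36, which held 2 patterns of the CCCH type found in RNA-binding proteins. A KRAB pattern was found in 115 (49.1%). These genes had a median of 12 finger patterns, against 7 in the 119 without a KRAB pattern. The KRAB pattern was not checked on known KRAB proteins, so some of the 119 may carry the domain. The log2 ratios of both kinds largely overlapped. With KRAB, 10 fell and 2 rose (8.7% and 1.74%, median -0.16). Without it, 11 fell and 1 rose (9.24% and 0.84%, median -0.12). The background over the minimum was 6.29% lower and 9.84% higher. By finger number, 43 of 45 genes with 15 or more patterns were below 0 (median -0.18, 6 or 13.3% lower and 0 higher). Of 34 genes with 1 to 4 patterns, 26 were below 0 (median -0.08, 1 or 2.94% lower and 1 higher). The ratios did not fall steadily with finger number. Genes with 5 to 9 and with 10 to 14 patterns both had a median of -0.12 (7.9% and 9.59% lower). The 6 genes with 0 patterns had the lowest median, -0.20 (1 lower). Whether these classes differ was not tested, since group means allow no test over samples.

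**Figure D4:**
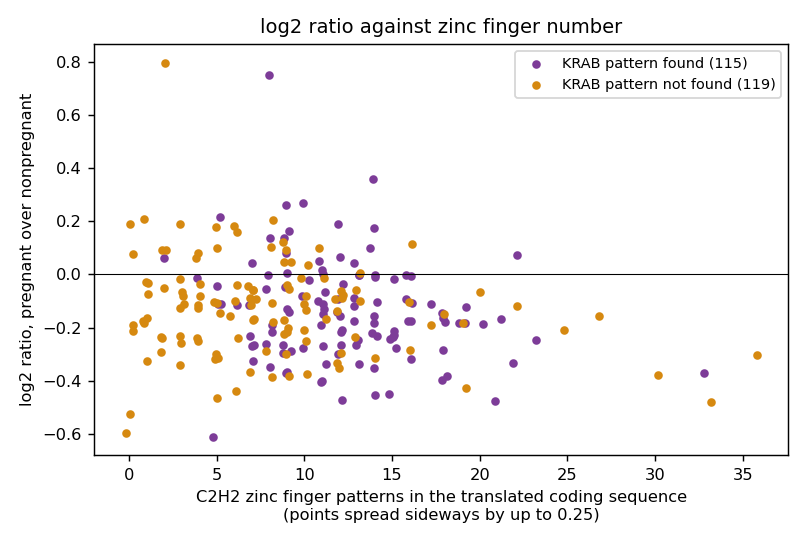
The log2 ratio of pregnant over nonpregnant (vertical) against the number of C2H2 zinc finger patterns (horizontal) for 234 Zfp genes, coloured by whether a KRAB pattern was found (115) or not (119). Both kinds spread over the same range of ratios, and 43 of the 45 genes with 15 or more patterns lie below 0.

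Members stood on 20 chromosomes, with 58 on chromosome 7 and 29 on chromosome 17. Where each member lay within 1 Mb of the next, 11 stretches of at least 5 members held 86 of them, and the median log2 ratio was below 0 in 10 stretches. The largest, on chromosome 17 from 21008903 to 23599487, held 18 members, all with a KRAB pattern. Of these, Zfp160, Zfp52, Zfp942 and Zfp944 fell and 0 rose (22.2% lower, against 8.86% of all abundant Zfp genes and 6.29% of all genes over the minimum), and the median log2 ratio was -0.18. The stretch was singled out for its size, and such a share was not particular to it. On chromosome 6 from 47835661 to 48623227, 2 of 8 members fell (25%). On chromosome 7 from 29768552 to 30169750, 2 of 9 fell (22.2%), while in some other stretches 0 fell. At an unadjusted p under 0.05, 5 of the 18 were lower (27.8%). That stands against 23.6% of all abundant Zfp genes and 14.2% of all genes over the minimum. The exception to a median below 0 was a stretch of 9 members on chromosome 7 from 127233061 to 127885996, with a median of 0.01. There 0 members passed in either direction by the authors' deposited table, and 1 was lower at an unadjusted p under 0.05. The 21 genes that fell lay on 9 chromosomes.

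Gene length moved with the ratio among the genes over the minimum. Among the other genes over the minimum, the median log2 ratio was 0.17 for annotated exon lengths under 2 kb and -0.08 for 7 kb or more. The Zfp genes had a median exon length of 4937.5 bases, against 4807 bases for all genes over the minimum. In each of 5 length classes the Zfp median was the lower one, at -0.03, -0.09, -0.12, -0.15 and -0.16 from shortest to longest, against 0.17, 0.07, 0.01, -0.03 and -0.08 for the other genes. These classes held 5, 35, 59, 76 and 59 Zfp genes, so the median of the shortest class rests on few. In 5 classes of transcript GC content the Zfp medians ran from -0.18 to -0.07 and those of the other genes from -0.06 to 0.01. The part of length in the ratios of single genes was not tested.

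**Figure D5:**
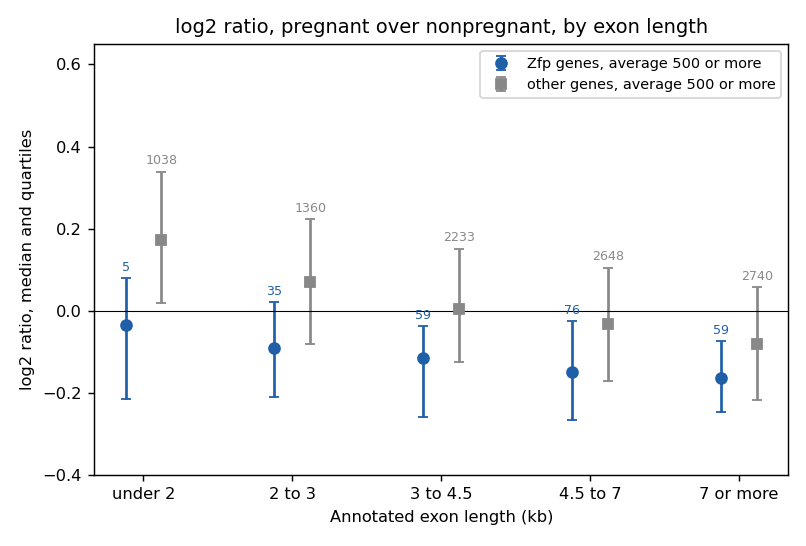
Median log2 ratio of pregnant over nonpregnant with quartiles (bars) by class of annotated exon length in kb, for abundant Zfp genes (circles) and other genes over the minimum (squares), with the number of genes above each bar. Both fall with length, and the Zfp median is the lower of the pair in each class, from -0.03 against 0.17 to -0.16 against -0.08. The shortest class holds only 5 Zfp genes.

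Islet identity and admixture were checked with marker lists. Beta cell markers, led by the insulin genes, took 21.7% of summed mean reads in pregnant islets and 18.5% in nonpregnant islets. Of these 8 markers 1 rose and 0 fell by the authors' deposited table (median log2 ratio 0.05). Among all genes 7.57% rose and 4.15% fell. Digestive enzyme and other acinar markers took 1.63% in pregnant islets and 0.119% in nonpregnant islets, and 17 of 18 rose by the authors' deposited table. Alpha cell markers took 1.54% in pregnant islets and 2.27% in nonpregnant islets, with 1 of 4 lower and a median log2 ratio of -0.30. Delta cell markers took 0.357% in pregnant islets and 0.437% in nonpregnant islets, with 1 of 2 lower and a median of -0.37. The PP cell marker took 0.275% in pregnant islets and 0.328% in nonpregnant islets and did not pass. Endocrine lists other than beta were thus lower in share. Lower shares were not particular to endocrine lists. Stellate markers took 0.00233% in pregnant islets and 0.00278% in nonpregnant islets, and neural markers took 0.000848% in pregnant islets and 0.00118% in nonpregnant islets. Duct markers took 0.0184% in both groups, and endothelial markers took 0.0267% in pregnant islets and 0.0277% in nonpregnant islets. Macrophage markers took 0.00279% in pregnant islets and 0.00262% in nonpregnant islets, with 1 of 4 higher, and the lymphocyte, stellate and neural lists each took less than the macrophage list in pregnant islets, with 0 passing. No list had a marker at 0 in both groups. Their part in the Zfp ratios was not tested. When the means were scaled to equal totals, the Zfp median was -0.23 with all genes in the totals and -0.14 without the acinar enzyme and insulin genes, against -0.14 with the deposited ratios.

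A list of KRAB cofactors and other chromatin partners, written from general knowledge, went both ways. Of 38 listed genes 37 were in the table by symbol, 1 of them under 2 gene IDs, which made 38 entries with a median log2 ratio of -0.04. Of these, 5 rose and 2 fell by the authors' deposited table (13.2% and 5.26%). The background was 7.57% higher and 4.15% lower over all genes. Over the minimum of 500 reads, where most of these entries lie, it was 9.84% higher and 6.29% lower. Setdb1, the methyltransferase recruited by TRIM28, had 3401 mean reads in pregnant islets and 4465 in nonpregnant islets, a fold change of 0.78 by the authors' deposited table (adjusted p = 0.0203). Its exons overlap those of Cers2 on the opposite strand. Trim28 itself had 9642 mean reads in pregnant islets and 11256 in nonpregnant islets, a fold change of 0.88 that did not pass by the authors' deposited table (adjusted p = 0.275). Dnmt3a, a DNA methyltransferase whose exons overlap Dnmt3aos on the opposite strand, fell to 0.74 by the authors' deposited table (adjusted p = 0.000507). Both entries of Atf7ip, the partner that stabilises SETDB1, rose, at 1.29-fold and 1.36-fold by the authors' deposited table. Exons of the entry at 1.36-fold overlap Gm44140 on the opposite strand. The others that rose were Rbbp7, a histone-binding protein whose exons overlap Txlng, at 1.24-fold, Dnmt3b at 2.82-fold and Uhrf1, which maintains DNA methylation at replication, at 7.71-fold by the authors' deposited table.

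Other zinc finger families over the same minimum are given for comparison. Of 30 Zbtb genes, 5 fell and 1 rose by the authors' deposited table (16.7% and 3.33%, median log2 ratio -0.18), and of 8 Zkscan genes 1 fell and 0 rose (12.5% lower, median -0.07). The background over the minimum was 6.29% lower and 9.84% higher. Of 7 Zscan, 13 Klf and 4 Sp genes 0 passed by the authors' deposited table, with medians of -0.12, -0.09 and -0.10. At an unadjusted p under 0.05, 2 Zscan genes and 2 Klf genes were lower and 0 higher, while 1 Sp gene was lower and 1 higher. These are 28.6%, 15.4% and 25% lower of small families, against 14.2% of all genes over the minimum. Whether the Zfp genes differ from these families was not tested. Some Zbtb, Zscan and Zkscan proteins stand among the Zfp genes here under older symbols, such as Zfp238, now Zbtb18. At the edge of the minimum, Zfp959, Zfp703 and Zfp442 averaged 503.5, 508 and 511.5 reads and were included, and Zfp3, Zfp472 and Zfp54 averaged 499, 484.5 and 483 reads and were not.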

How the data were processed

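RNA of pancreatic islets was sequenced from TruSeq libraries, per the labels' protocols. TopHat2 2.0.12, TopHat, Bowtie, HTSeq 0.5.3p3 and GRCm38 are named in the submitters' processing notes. The authors deposited, per the file headers, a mean read count per gene and group, a linear fold change ratio, its log2 and a p-value with its adjusted form. Their test, their scaling and strand use are not given in the sources used here. No values per library were analysed here, so the depth of single libraries is unknown.

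The 19963 lines were reduced to 19940 genes, since 21 genes stood on several identical lines. Summed mean reads were 87654449 (pregnant) and 84493872 (nonpregnant). Planned refits of library counts could not be run on group means, and the deposited adjusted p under 0.05 was used. Recomputed Benjamini-Hochberg values called the same number of genes, 2337. GENCODE M21 matched 234 members and gave coordinates, exon lengths and coding sequences. A finger pattern was a cysteine pair 2 to 4 residues apart, 12 residues, and a histidine pair 3 to 5 apart. A KRAB pattern matched at least 10 of 14 conserved positions in any coding transcript; truncated boxes are missed. Calls and the C2H2 finger pattern were tested on simulated data, and the KRAB and CCCH patterns were not. Python 3.11.15, pandas 2.3.3 and numpy 2.4.6 were used.

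Members and lists were chosen with earlier results of these data known. Genes were named if they passed, were among the 5 highest per length or the 5 highest or lowest ratios not passing, lay by the minimum, or stood in a set of 28 genes with known roles, of which 23 were members.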

Additional observations from a re-analysis of the deposited data

How the results depend on the processing

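The 3 higher Zfp genes numbered 5 at an unadjusted p under 0.05 and 1 without genes whose exons overlap the opposite strand. The 21 lower ones numbered 34 at an adjusted p under 0.1, 9 under 0.01 (with 2 higher) and 56 at an unadjusted p under 0.05. The remaining settings (a minimum size of change, an average of at least 250 or 1000 reads, both means over 500, symbols with letters, without genes sharing over 20% of stretches, the last chosen after seeing the data) gave 3 higher and 16 to 22 lower, and 18 lower without opposite-strand overlap. The median log2 ratio was -0.23 when scaled to total mean reads, against -0.10 for all genes over the minimum, with 211 Zfp genes below 0 (89.0%, against 66.6% of all genes over the minimum). It kept its direction in all settings run. Without opposite-strand overlap the Zfp share of mean reads was 0.423% in pregnant and 0.498% in nonpregnant islets. Corepressor entries at an unadjusted p under 0.05 numbered 10 higher and 5 lower (26.3% and 13.2%). The background was 12.4% higher and 9.78% lower for all genes, and 16% higher and 14.2% lower for all genes over the minimum. All 62 named genes rescaled to total reads moved by under 0.1, and 0 calls changed sign. No paired analysis was possible because each group has 1 mean; leaving out libraries, DESeq2 and the replicate block were not run for the same reason. With no spread per gene, the depth at which small changes become detectable is not known.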

Other observations

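Zfp genes under the minimum of 500 reads were also mostly below 0, in 74 of 100 genes, with a median log2 ratio of -0.17. Among them 3 fell and 1 rose by the authors' deposited table, named here after their values were seen. These shares of 3% and 1% stand against 4.15% lower and 7.57% higher among all genes. That background includes the genes over the minimum, of which more passed (6.29% lower and 9.84% higher). It is therefore too high for genes under the minimum. Of the 827 genes that fell among all genes, 650 were over the minimum, as were 1016 of the 1510 that rose. The share among genes under the minimum was not computed, so 3% and 1% cannot be placed above or below it. Zfp872 had 126 mean reads in pregnant islets and 274 in nonpregnant islets, a fold change of 0.47 by the authors' deposited table (adjusted p = 5.1e-06), lower than that of any abundant Zfp gene. Zfp493 had 107 mean reads in pregnant islets and 195 in nonpregnant islets (fold change 0.57 by the authors' deposited table), and Zfp712 had 272 in pregnant islets and 396 in nonpregnant islets (0.7). Zfp69, a gene linked to diabetes in mouse crosses, had 195 mean reads in pregnant islets and 88 in nonpregnant islets, a 2.25-fold rise by the authors' deposited table (adjusted p = 0.0149). Zfp57, which protects genomic imprints, had 19 mean reads in both groups. Zfp131, Zfp423 and Zfp521 averaged 30.5, 43 and 149.5 reads and did not pass by the authors' deposited table.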
